A study of Homo sapiens with 4 samples.

Results

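The forkhead family genes were examined among the regions bound by FOXK2 in OVCAR5 cells. Peaks were chosen by name: every peak whose assigned gene was called FOXA to FOXS with a number, including FOXK1, FOXK2 and the FOXO genes. This gave 43 of 12471 peaks in replicate 1 and 78 of 27281 peaks in replicate 2, or 121 of 39752 in all. They named 24 of the 47 forkhead genes that the RefSeq gene reference holds under this naming rule. The choice used gene names, which the annotation gives by the nearest start, and used neither peak strength nor sequence.

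OVCAR5 is an established human ovarian cancer line, labelled as high grade serous and as derived from ascites. Chromatin of these cells, grown in RPMI with serum, was crosslinked with paraformaldehyde and precipitated with an antibody to FOXK2 in 2 biological replicates, and each replicate had its own annotated list of peaks. The 2 input samples were not used here, nor was the FOXK2 knockdown transcriptome of the same study. Since 2 replicates of a single line in a single condition allow no test between conditions, the family is described beside all peaks of the same list.

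Forkhead proteins share a winged-helix domain that contacts a short core sequence, TGTTTAC or its reverse complement GTAAACA. FOXO proteins turn on genes of fasting, stress resistance and cell death and are kept out of the nucleus by insulin signaling through AKT. FOXK1 and FOXK2 recognize the same core, recruit the SIN3A corepressor and enter the nucleus on insulin stimulation. The comparison therefore asked at which genes of its own family FOXK2 was found, and how strongly.

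The most prominent peaks lay at FOXK1, the paralog of FOXK2, and at FOXO3, whose product is a FOXO factor of starvation and autophagy. The sequences under the strongest of these regions follow in the hg38 build, 5′ to 3′. Each is the stretch covered by the peaks of both replicates. Capitals mark the exact core TGTTTAC or GTAAACA or, at the upstream FOXK1 peak, overlapping matches to the degenerate core RYAAAYA (R for A or G, Y for C or T) on opposite strands.
FOXK1 intron 2, chr7:4744939-4745149, plus strand: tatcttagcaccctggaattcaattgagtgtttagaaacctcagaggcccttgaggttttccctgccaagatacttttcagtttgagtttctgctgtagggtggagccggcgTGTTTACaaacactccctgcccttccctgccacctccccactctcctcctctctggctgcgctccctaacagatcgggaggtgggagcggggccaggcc
FOXK1 upstream, chr7:4641851-4642061, plus strand: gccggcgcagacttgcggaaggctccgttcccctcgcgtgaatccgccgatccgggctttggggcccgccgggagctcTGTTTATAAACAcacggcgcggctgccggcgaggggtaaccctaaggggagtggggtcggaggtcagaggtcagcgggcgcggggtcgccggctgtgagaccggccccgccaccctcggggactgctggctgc
FOXO3 upstream, chr6:108557872-108558082, plus strand: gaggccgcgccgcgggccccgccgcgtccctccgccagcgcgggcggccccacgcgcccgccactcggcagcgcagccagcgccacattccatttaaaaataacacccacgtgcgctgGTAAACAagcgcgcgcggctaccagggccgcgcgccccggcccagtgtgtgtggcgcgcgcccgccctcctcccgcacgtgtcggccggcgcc
FOXP1 intron 4, chr3:71050645-71050855, plus strand: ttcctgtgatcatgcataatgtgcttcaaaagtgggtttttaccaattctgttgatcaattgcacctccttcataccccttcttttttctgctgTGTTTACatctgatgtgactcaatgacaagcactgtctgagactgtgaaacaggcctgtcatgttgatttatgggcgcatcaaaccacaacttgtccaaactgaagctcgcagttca
The FOXK1 upstream stretch held no exact core, but its degenerate cores formed an inverted pair that shared 2 bases. The FOXK1 intron 2 stretch held the same arrangement, since its exact core ran on into a degenerate match on the opposite strand, left in lower case. Such an inverted pair was present within 100 bp of the centre of 0.361% of all peaks in replicate 1 and 0.337% in replicate 2. Among the forkhead-named peaks it was seen in 1 of 43 and 1 of 78, which were the upstream FOXK1 peaks. The intron 2 stretch and those of FOXO3 and FOXP1 held the exact core once each.

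A second set of sequences was chosen because the promoters of FOXP1 and FOXP2, which encode related forkhead repressors of development, held a similar stretch. Neither promoter peak held the inverted pair described for FOXK1. Both are written in the sense of their gene, with the forkhead core in capitals.
FOXP1 promoter, chr3:71584098-71584137, minus strand: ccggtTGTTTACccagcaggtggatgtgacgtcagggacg
FOXP2 promoter, chr7:114085871-114085910, plus strand: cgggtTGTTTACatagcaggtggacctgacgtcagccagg
The FOXP1 and FOXP2 elements matched at 32 of 40 positions (80.0%). Between the start of the core and the end of a cyclic AMP response element, TGACGTCA, 25 of 29 bases were identical. This pattern, with the 4 differing positions left free, occurred 2 times on the named chromosomes of hg38, namely at these promoters, 140 bp upstream of the nearest annotated FOXP1 start and 437 bp upstream of that of FOXP2. The pattern was built from these sequences after they had been seen, so that its matches there are given by construction. Each site lay under a peak in both replicates. The element TGACGTCA itself was present within 100 bp of the centre of 0.81% of all peaks in replicate 1 and 0.803% in replicate 2. Among forkhead peaks it was seen in 2 of 43 and 2 of 78, which were the FOXP1 and FOXP2 promoter peaks. It was also present in both peaks at the FOXD3 promoter, which carry the name FOXD3-AS1 and so fall outside the naming rule.

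Further sites are shown as 30-base windows with the core in capitals, because they show the core at other members, among stronger peaks (FOXJ2, FOXA1) and weaker ones (FOXO4, FOXC1).
FOXJ2 upstream, distal site, chr12:8026292-8026321, minus strand: gacttcccattTGTTTACgttacataagag
FOXJ2 upstream, proximal site, chr12:8026386-8026415, minus strand: cgatggtttccTGTTTACtgcctccgaagt
FOXA1-assigned site in MIPOL1, chr14:37547027-37547056, minus strand: taaggctttggTGTTTACacagtgttgaat
FOXO1 promoter, chr13:40666950-40666979, plus strand: cggcgacacttTGTTTACtacggagcagca
FOXO4 promoter, chrX:71095862-71095891, minus strand: cctgacgtctcTGTTTACcactcgccgggg
FOXB1 gene end, plus-strand site, chr15:60006679-60006708, plus strand: taaccttgtatTGTTTACaaagcgcccagt
FOXB1 gene end, minus-strand site, chr15:60006702-60006731, minus strand: ttcaagttcacTGTTTACatattactgggc
FOXC1-assigned site in GMDS, chr6:1768189-1768218, minus strand: agatattccccTGTTTACacacattcatat
FOXJ2 and FOXB1 each carried more than 1 core within a single peak. The FOXA1-assigned site lay in the last exon of MIPOL1, the FOXC1-assigned site lay in an intron of GMDS, and the FOXO4 and FOXB1 sites overlapped untranslated regions of those genes.

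Of the 47 forkhead genes, 20 had a peak in replicate 1, 24 in replicate 2 and 20 in both, or 42.6% (Wilson 95% interval 29.5 to 56.7, counting error only). Of all 20052 protein-coding genes, 6275 had a peak in replicate 1, 10362 in replicate 2 and 5734 in both, the last being 28.6%. The 47 forkhead genes, and the FOXO group among them, also hold the pseudogene FOXO1B, which had no peak. This order rests on naming by nearest start: counted by gene span with 1000 bp upstream, 12 of 47 forkhead genes (25.5%, 15.3 to 39.5) had a peak in both, beside 28.5% of all protein-coding genes of GENCODE. The FOXO group had peaks in both replicates at 4 of 6 genes, the FOXK group at 2 of 2, the FOXP group at 2 of 4, the FOXJ group at 2 of 3, the FOXI group at 2 of 3 and the FOXN group at 2 of 4. FOXA, FOXB, FOXC, FOXD, FOXE and FOXS had 1 such gene each. FOXI3, FOXJ1, FOXN4 and FOXQ1 were listed only in replicate 2. The 23 genes with no peak to their name in either list included FOXM1, a regulator of mitosis, FOXA2, FOXL2, a factor of the ovary, FOXP3, FOXP4, and all members of the FOXF, FOXG, FOXH, FOXL and FOXR groups. Absence was also common among all protein-coding genes, as their counts above show, and is not shown to be particular to these members. At 19 genes the peaks of the replicates overlapped by at least 1 bp, the exception among the 20 being FOXN3.

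A score given by the peak caller ranks the peaks of 1 list, and a percentile of 100 stands for the highest score in that list. Forkhead peaks spread over nearly the whole range, with percentiles of 2.35 to 99.7 in the replicate 1 list and 0.117 to 99.9 in the replicate 2 list. Their median percentile was 47.5 beside 50.7 for all peaks in replicate 1 and 57.1 beside 50.7 in replicate 2. The median forkhead peak thus lay near the middle of each list, and a few regions stood far above it.

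**Figure D1:**
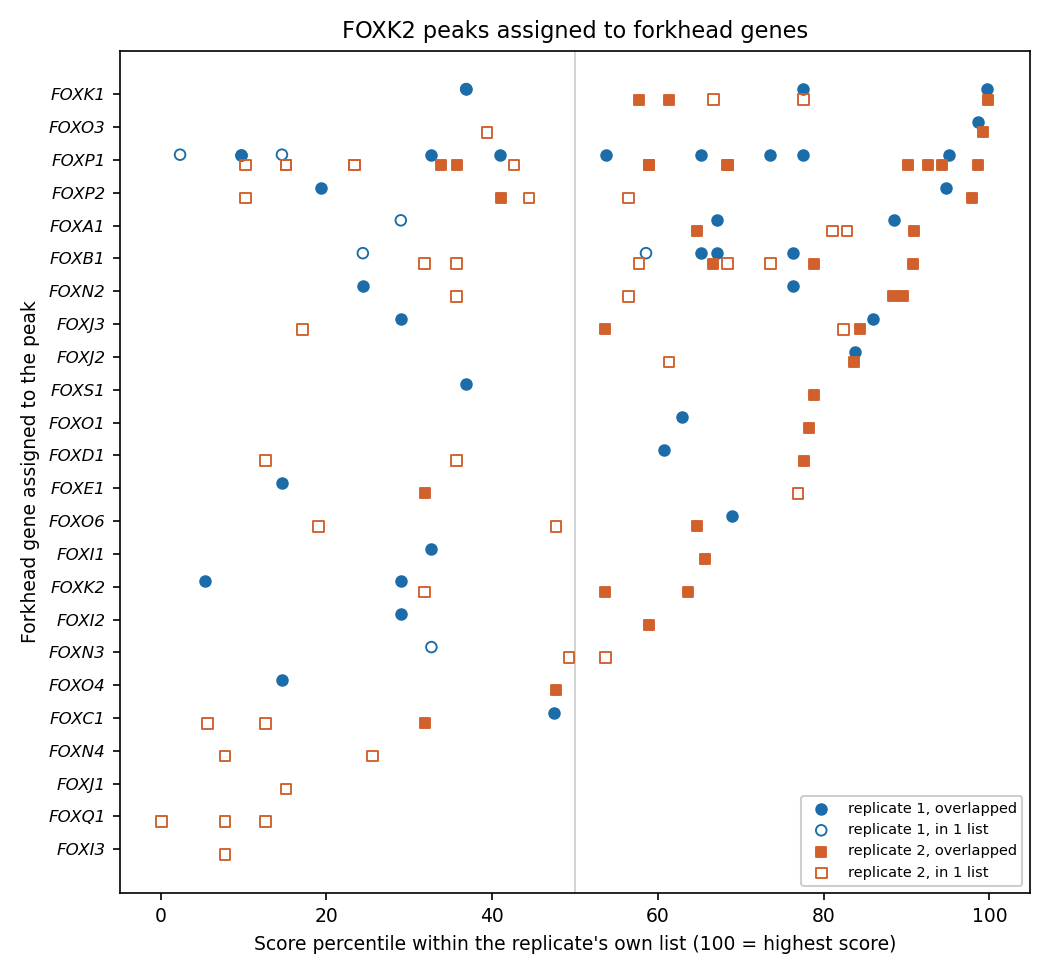
Score percentile (x axis, 100 is the highest score of the replicate's own list) of every peak assigned to a forkhead gene (y axis, ordered by the best percentile), with circles for replicate 1, squares for replicate 2 and filled symbols for peaks overlapped in the other replicate. FOXK1, FOXO3, FOXP1 and FOXP2 have peaks at a percentile of 94.8 or higher in both replicates, and the highest of FOXK2 is at 63.6.

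FOXK1 had 4 named peaks in replicate 1 and 5 in replicate 2. Its strongest lay 40343 bp upstream of the gene in replicate 1 and 40354 bp upstream in replicate 2, within an annotated CpG island. The score was 39.2 (rank 36 of 12471) in replicate 1 and 78.8 (rank 37 of 27281) in replicate 2. All distinct scores below 10 lay within 0.0051 of whole multiples of 0.1886 in replicate 1 and 0.1487 in replicate 2, taken as the worth of 1 tag. On this scale the FOXK1 scores correspond to 208 tags (exact Poisson 95% interval 181 to 238) and 530 tags (486 to 577). In GENCODE the region lies 292 bp upstream of a long noncoding RNA gene, ENSG00000286874, so that the nearest coding start is not the nearest transcript start.

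An even higher peak lay inside FOXK1 but did not carry its name. In intron 2 of 8, at chr7:4744939-4745149, the score was 49.0 (rank 17) in replicate 1 and 86.8 (rank 21) in replicate 2. Because its nearest start is that of AP5Z1, 30587 bp away, nearest-start annotation assigned it to that neighbour. The other FOXK1 peaks were weaker. A pair in intron 1 of 8, 1879 and 2097 bp into the gene, shared only 16 bp and scored 8.49 and 8.48. A distant pair 265569 bp upstream scored 5.09 and 8.03. Peaks deeper in intron 1 were seen in 1 list only, at 24353 bp in replicate 1 (score 5.09) and at 30603 and 43158 bp in replicate 2 (scores 9.22 and 11.3).

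FOXK2 itself had 2 named peaks in replicate 1 and 3 in replicate 2, none at its promoter. The pair in intron 1 of 8, 39898 bp into the gene, scored 3.77 (rank 11801) in replicate 1 and 8.77 (rank 9936) in replicate 2, or 20 and 59 tags. The weakest peak of each list stood at 16 and 21 tags, so that the replicate 1 peak stood only 4 tags above the weakest of its list. A GENCODE transcript of FOXK2 starts 252 bp from this site. The pair upstream of the gene, 25071 bp away in replicate 1, scored 4.72 (rank 8857) and 7.58 (rank 12649). Replicate 2 had a further peak in intron 1, at 16656 bp, with a score of 5.65. Neither overlapping pair of FOXK2 held the exact core, as the intron 1 sequence shows, in which capitals mark its only match to the degenerate core.
FOXK2 intron 1, chr17:82559511-82559721, plus strand: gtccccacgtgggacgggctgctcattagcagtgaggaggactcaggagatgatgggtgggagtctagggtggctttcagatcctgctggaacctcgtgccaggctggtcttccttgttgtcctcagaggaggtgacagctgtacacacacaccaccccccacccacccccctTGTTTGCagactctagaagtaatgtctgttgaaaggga
The gene of the precipitated factor thus ranked below its paralog in both lists. The best percentile was 99.7 at FOXK1 and 29.0 at FOXK2 in replicate 1, and 99.9 and 63.6 in replicate 2.

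Among the FOXO genes, FOXO3 carried the strongest peak, 1846 bp upstream of its start in replicate 1 and 1838 bp upstream in replicate 2. The score was 24.1 (rank 167, 128 tags) in replicate 1 and 42.4 (rank 225, 285 tags) in replicate 2. The region is a CpG island of 76.1% GC within 100 bp of the replicate 1 centre, with its single core close to the middle, and in GENCODE it lies inside the long noncoding RNA gene ENSG00000287044. Replicate 2 alone had weak peaks in intron 1 of FOXO3, with a score of 6.25 for the one that carried its name and 4.91 for one named for LINC00222, which held 1 exact core.

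FOXO1, the insulin-responsive FOXO factor of liver and muscle, had 1 promoter peak in each replicate. It lay 226 bp upstream in replicate 1 (score 6.79, rank 4624) and 370 bp upstream in replicate 2 (score 11.5, rank 5943), with 90 bp in common. The core at chr13:40666961-40666967 was within 100 bp of the replicate 2 centre only. FOXO4, on chromosome X, also had 1 promoter peak in each replicate, with scores of 4.15 (rank 10645) and 6.99 (rank 14263), and its core was found in both windows. FOXO6 had its overlapping pair 19615 bp upstream in replicate 1 and 19649 bp upstream in replicate 2 (scores 7.36 and 8.92), and in replicate 2 only a promoter peak of score 6.99 and a peak 7989 bp upstream of score 4.76. FOXO1 and FOXO4 thus ranked below FOXO3 in both lists, and their peaks lay nearer to the annotated start.

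**Figure D2:**
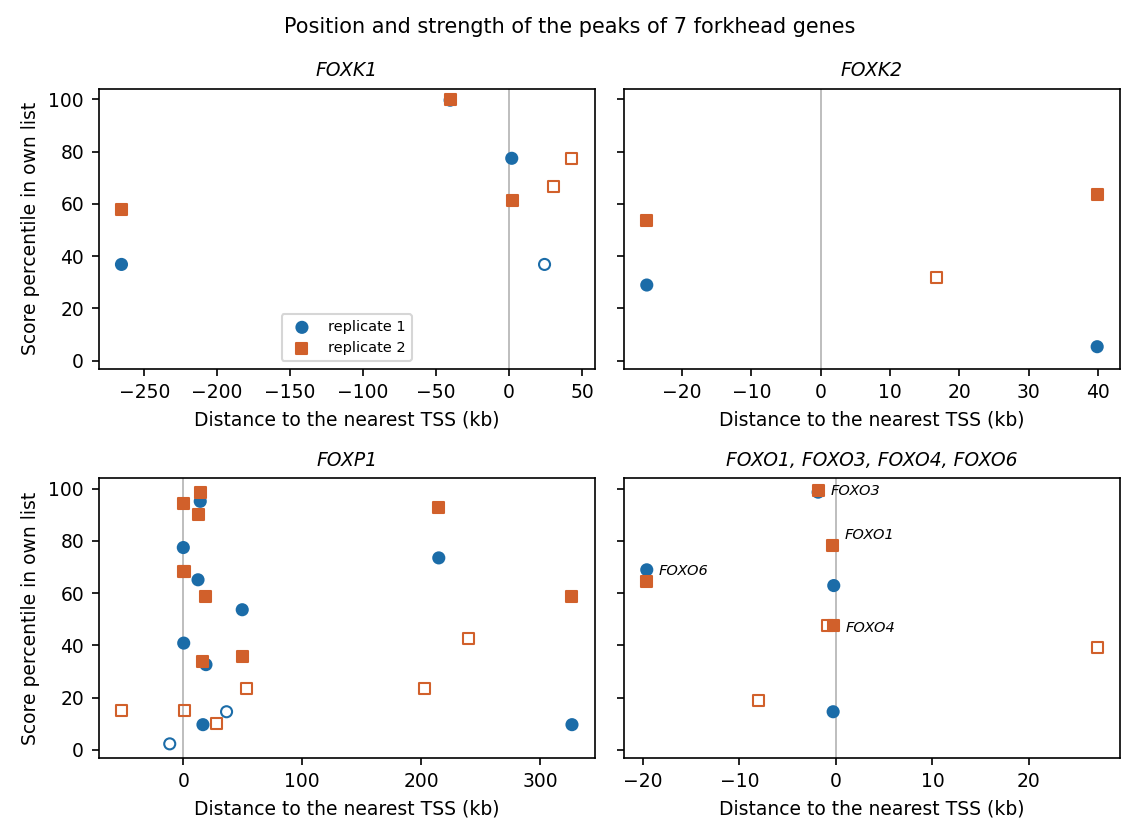
Distance of each peak centre from the nearest annotated start (x axis, kb, negative upstream) and its score percentile (y axis) at FOXK1, FOXK2, FOXP1 and 4 FOXO genes, with circles for replicate 1, squares for replicate 2 and filled symbols for peaks overlapped in the other replicate. The top FOXK1 peak stands well upstream of the gene, the top FOXO3 peak just upstream of its start, and the peaks of FOXP1 run from its promoter to a far intergenic pair.

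FOXP1 held the largest number of peaks in the family, 11 in replicate 1 and 16 in replicate 2. Among all protein-coding genes only 1 had more in replicate 1 and 2 had more in replicate 2. FOXP1 is a long gene of 629 kb, with 1.27 and 2.54 peaks per 100 kb inside it, beside 0.447 and 0.999 over the 6794 genes of at least 50 kb. FOXK1 had the highest density among the forkhead genes of that length, with 3.37 and 4.49 peaks per 100 kb. FOXP4 (1.79 and 3.57) and FOXN2 (1.55 and 3.09) also lay above FOXP1 in both replicates. FOXB1, FOXK2 and FOXJ3 lay above it in a single replicate each, so that the density of FOXP1 was not particular to it. FOXP2, nearly as long at 607 kb, lay below the value over all long genes in both replicates, with 0.165 and 0.494, and FOXO1 had no peak inside it in either.

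The strongest FOXP1 peak lay in an intron, 14173 bp from an internal start in replicate 1. Its score was 14.9 (rank 603) in replicate 1 and 35.1 (rank 368) in replicate 2, and its window held 1 exact core and 1 AP-1 site (TGAGTCA or TGACTCA). The promoter peak with the element shown above scored 8.49 (rank 2809) and 19.9 (rank 1573). An exon peak nearby at 12314 bp scored 6.98 and 16.4, and an intergenic pair beyond the far end of the gene, 214789 bp from the nearest start, scored 7.92 and 18.3. The remaining 5 overlapping pairs of FOXP1 scored between 3.96 and 6.04 in replicate 1 and between 5.80 and 9.52 in replicate 2.

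FOXP2, known for its part in speech and language, had its strongest peak at the promoter with the shared element, 408 bp upstream in replicate 1 (score 14.5, rank 651) and 445 bp upstream in replicate 2 (score 28.9, rank 590). An intronic pair 76037 bp downstream of the nearest start scored 4.34 and 6.39, and 3 more peaks appeared in replicate 2 only, with scores of 4.16, 6.69 and 7.88, the second of them in a promoter. FOXP4 had no peak to its name. A weak intronic pair inside FOXP4 was assigned to MIR4641, with scores of 4.15 (rank 10645) and 5.50 (rank 19113).

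FOXJ3 and FOXJ2, widely expressed members, had pairs of middle to high rank. FOXJ3 scored 10.2 (rank 1751) and 13.4 (rank 4260) in intron 1, 485 bp from the start in replicate 1, in a window without either form of the core. The promoter of FOXJ3 had a peak in replicate 2 only, 94 bp upstream of the start (score 12.6, rank 4807). A second pair 4289 bp upstream scored 4.72 and 7.58, and a weak intronic peak of replicate 2 scored 4.61. A further pair in intron 5 of FOXJ3, assigned to GUCA2A, scored 7.92 (rank 3303) and 17.1 (rank 2416) and held 1 exact core. FOXJ2 scored 9.62 (rank 2021) and 13.1 (rank 4466) at 6364 bp upstream in replicate 1, with both cores shown above inside the shared stretch. The percentile of this FOXJ2 pair hardly differed between the replicates, at 83.8 and 83.6. In replicate 2 only, FOXJ2 had a peak in intron 1 (score 8.48) and FOXJ1 had 1 peak 47562 bp upstream (score 4.46).

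FOXN2 had an intronic pair 29677 bp into the gene in replicate 1, with scores of 8.30 (rank 2960) and 15.2 (rank 3179). Its upstream pair, 92596 bp away, differed most in percentile among the 36 pairs, at 24.4 and 89.6, with scores of 4.53 (rank 9428) and 15.9 (rank 2852). FOXN3, which encodes a checkpoint suppressor, had 1 peak in replicate 1 (score 4.90) and 2 in replicate 2 (scores 7.14 and 7.58), at different places. An overlapping pair in intron 1 of FOXN3, with scores of 4.90 and 8.63, carried the name of the antisense RNA FOXN3-AS1. FOXN2 had 2 further peaks in replicate 2 (scores 5.95 and 7.88), and FOXN4 had a promoter peak (5.21) and an intronic one (4.02) in that replicate only.

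FOXA1, a pioneer factor that opens chromatin for steroid receptors, was named for 3 and 4 peaks. The strongest pair scored 10.9 (rank 1439) and 17 (rank 2469), 48070 bp from the FOXA1 start in replicate 1 and inside MIPOL1, the neighbouring gene. The other overlapping pair, 27839 bp away, scored 7.17 and 8.92. Peaks in 1 list only lay 141479 bp away in replicate 1 (score 4.72) and 11294 and 128308 bp away in replicate 2 (scores 12.8 and 12.2). FOXC1 had its only overlapping pair 157775 bp away within GMDS, with scores of 5.66 (rank 6554) and 5.65 (rank 18588), and 2 more peaks in replicate 2 (scores 4.31 and 3.87). FOXQ1 had 3 peaks in replicate 2 alone, with scores of 3.27, 4.02 and 4.31, the first of which ranked 27249 of 27281.

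Of the other members with overlapping pairs, FOXB1, a gene of the developing brain, had 5 and 8 peaks. Its pair at the gene end scored 6.98 (rank 4348) and 16.8 (rank 2515) with 2 exact cores in the replicate 1 window and 3 in that of replicate 2. Its pairs 66738 and 133856 bp away scored 7.17 and 8.30 in replicate 1 and 11.6 and 9.22 in replicate 2. FOXD1 had a CpG island pair 10773 bp away (scores 6.6 and 11.3). In replicate 2 only, FOXD1 had a promoter peak 226 bp upstream (score 5.95) and a peak 36288 bp away (score 4.31). The FOXS1 pair, 9274 bp away, scored 5.09 and 11.6. Pairs of FOXI1 (4.90 and 9.07), FOXI2 (4.72 and 8.18) and FOXE1 (4.15 and 5.65) were among the weaker ones, 45605, 21348 and 23652 bp from the start in replicate 1. The strongest FOXE1 peak was in replicate 2 only, 20718 bp from the start (score 11.2, rank 6296). None of the FOXD1, FOXS1, FOXI1, FOXI2 and FOXE1 pairs held the exact core.

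**Figure D3:**
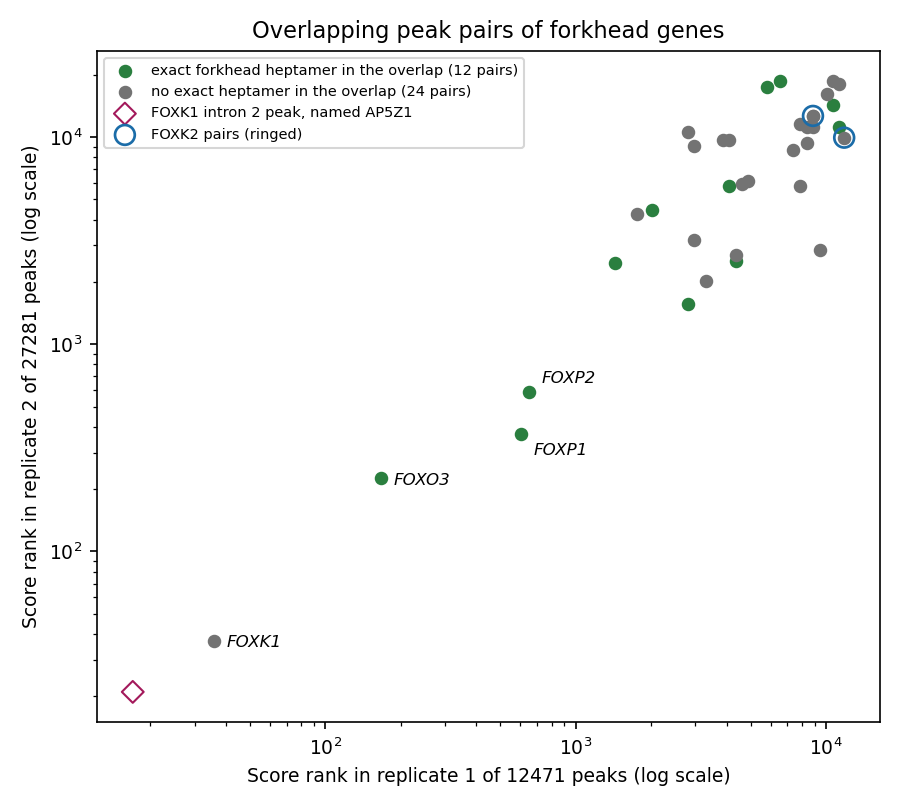
Score rank in replicate 1 (x axis, log scale) and replicate 2 (y axis, log scale) of the 36 overlapping pairs of forkhead genes, where rank 1 is the highest score, with pairs that hold the exact forkhead heptamer in the overlap in green, the others in grey and the FOXK2 pairs ringed. The diamond is the FOXK1 intron 2 peak that carries the name of AP5Z1, with ranks 17 and 21, and the best named pair is that of FOXK1 upstream, with ranks 36 and 37.

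The replicates ordered the forkhead pairs in a like way. Over the 36 pairs, which come from 19 genes and the same 2 libraries, Spearman's rho between the score percentiles was 0.757, beside 0.852 over all 9343 pairs. The centres of a forkhead pair lay a median of 28 bp apart, beside 29 bp over all pairs. The percentile was higher in replicate 2 for 28 of 36 forkhead pairs (77.8%), as for 88.8% of all pairs. Of the forkhead peaks, 36 of 43 in replicate 1 (83.7%, Wilson 95% interval 70.0 to 91.9) were overlapped in replicate 2, beside 74.9% of all peaks, which lies within the interval. In replicate 2 the share was 36 of 78 (46.2%, 35.5 to 57.1) beside 34.2%, just under the interval. These intervals treat peaks as independent, whereas several belong to 1 gene.

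Annotated promoters held 4 of 43 forkhead peaks in replicate 1 (9.3%, 3.68 to 21.6) beside 21.7% of all peaks, and 11 of 78 in replicate 2 (14.1%, 8.06 to 23.5) beside 18.0%. The replicate 1 background lay just outside its interval and the replicate 2 background inside. With GENCODE transcript starts in place of the deposited classes the shares were 16.3% (8.12 to 30) beside 29.5% in replicate 1 and 19.2% (12 to 29.3) beside 25.2% in replicate 2, and both backgrounds then lay inside. FOXO1, FOXO4, FOXP1 and FOXP2 were the 4 genes of 47 (8.51%) whose promoter held a peak in each replicate, beside 9.30% of all protein-coding genes. Intergenic peaks made up 48.8% and 43.6% of the family, beside 34.1% and 36.5%. The median distance to the nearest start was 24353 and 27339 bp, beside 16140 and 20161 bp. Peaks labelled as CpG island in the detailed annotation, among them the top peaks of FOXK1 and FOXO3, were few. They were 3 of 43 in replicate 1 (6.98%, 2.4 to 18.6) beside 2.82%, which lies inside the interval. In replicate 2 they were 7 of 78 (8.97%, 4.42 to 17.4) beside 2.31%, which lies outside. No promoter peak of the family carried this label. The median GC content of the forkhead windows was 45.3% and 42.8%, below the 47.3% and 46.3% of all peaks.

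The exact core, sought in either orientation no further than 100 bp from the centre of a peak, was present in 14 of 43 forkhead peaks in replicate 1 (32.6%, 20.5 to 47.5) beside 30.5% of all peaks. In replicate 2 it was present in 27 of 78 (34.6%, 25.0 to 45.7) beside 28.2%. Both backgrounds lay inside the intervals. In windows of the same length 2000 bp to either side of the forkhead peaks the share was 5.81% and 3.85%, beside 2.88% and 2.89% around all peaks. Of the cores in the forkhead windows, 14 of 17 in replicate 1 (82.4%) and 26 of 31 in replicate 2 (83.9%) lay within 50 bp of the centre, close to the 81.1% and 82.6% of the cores in all peaks. The degenerate core RYAAAYA, which also takes in every exact core, was found in 74.4% (59.8 to 85.1) beside 57.9% in replicate 1, where the background lay outside the interval, and in 65.4% (54.3 to 75.0) beside 56.9% in replicate 2, where it lay inside. AP-1 sites were found in 20.9% and 17.9%, beside 16.4% and 16.6%. A match of letters describes the sequence and is not a test of binding.

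**Figure D4:**
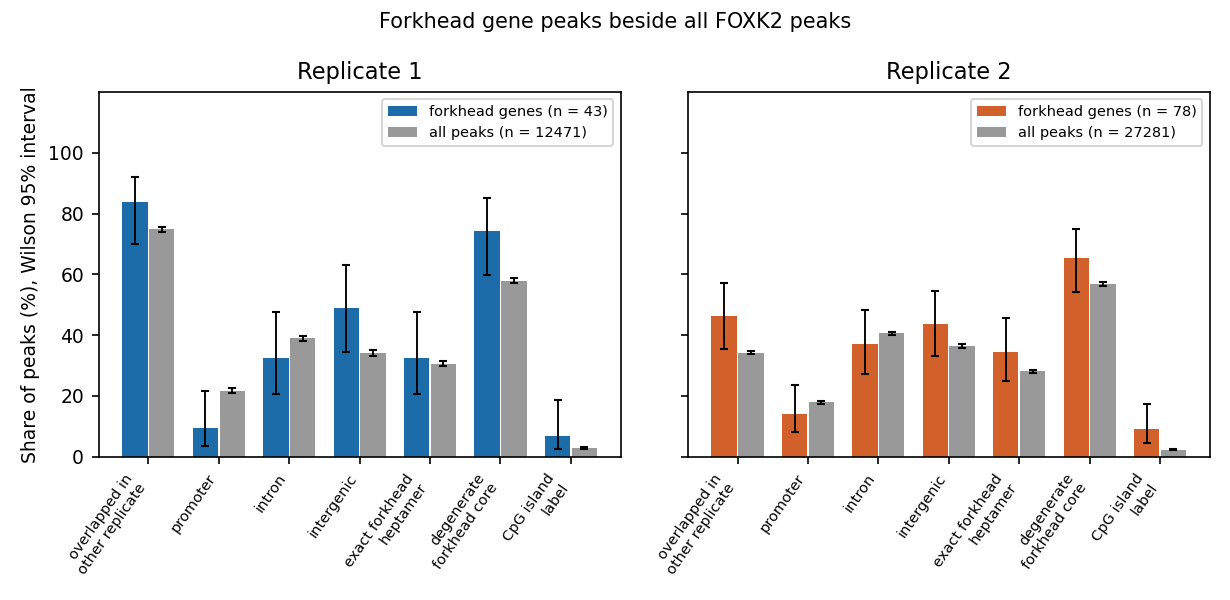
Share of peaks (y axis, percent, from 0) that were overlapped in the other replicate, fell in each annotation class or held the exact forkhead heptamer or the degenerate core within 100 bp of the centre, for forkhead genes (colour) and all peaks (grey) in each replicate, with Wilson 95% intervals as error bars. The exact heptamer shares of forkhead genes, 32.6% and 34.6%, have intervals that include those of all peaks, 30.5% and 28.2%.

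A nearest-start name and a place within a gene were not the same thing here. Of the forkhead-named peaks, 17 of 43 in replicate 1 (39.5%) and 33 of 78 in replicate 2 (42.3%) had their centre inside the gene they were named for. This share was not counted over all peaks, so that it is not shown to be particular to the family. In the count by gene span given above, 12 of 47 forkhead genes (25.5%) had a peak in both replicates. The 28.5% of all genes lay inside the interval of that count, whereas the count by name was above its background. Of the 20 genes counted by name, FOXA1, FOXC1, FOXD1, FOXE1, FOXI1, FOXI2, FOXJ2, FOXO3, FOXO6 and FOXS1 were no longer counted, and FOXD3 and FOXP4 were added. The FOXD3 peak lay at the promoter of its antisense RNA FOXD3-AS1, where the scores were 14.3 (rank 690) and 17.5 (rank 2255) without an exact core. At FOXM1, a weak peak of replicate 2 (score 4.02, rank 25156) lay in the promoter that it shares with RHNO1. Inside FOXK2, intron 7 of 8 had a peak in replicate 1 (score 5.47) that was named for WDR45B. A replicate 2 peak of that name (score 5.50, rank 19113) also lay in the GENCODE span of FOXK2 and held 1 exact core. Genes that begin with FOX but fall outside the naming rule were FOXD3-AS1 with 1 peak in each replicate, FOXN3-AS1 with 2 and 3, and FOXN3-AS2 with 0 and 1.

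Genes around the family in its pathway were counted the same way. Of 33 regulators and partners of FOXO and FOXK proteins, 16 (48.5%) had a peak in both replicates, beside 28.6% of all protein-coding genes, and 7 had a promoter peak in both, beside 9.30%. The promoter of TSC1, a brake on mTORC1, scored 24.7 (rank 156) and 46.7 (rank 177) with 1 core. Those of the receptors IGF1R (ranks 603 and 408) and INSR (ranks 3663 and 3113) also held a core. The promoter of SIRT1, a deacetylase that acts on FOXO proteins, scored 16.4 (rank 465) and 28.7 (rank 601). The best peaks of SIRT1, AKT2, IRS2 and MTOR, all at promoters, held no exact core in either replicate. SIN3A had peaks in replicate 2 only. AKT1, DVL1, DVL2, DVL3, EP300, NCOR1, SKP2 and USP7 had none in either list.

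Of 30 textbook targets of FOXO or FOXK factors, 19 (63.3%) had a peak in both replicates, beside the 28.6% above, and 13 had a promoter peak in both, beside 9.30%. The promoter of FBXO32, a ubiquitin ligase of muscle atrophy, held the highest score of each list, 188.3 and 387.9. The best forkhead-named peak, at FOXK1, scored 39.2 and 78.8. TXNIP (ranks 96 and 71), PDK4 (156 and 145) and BCL2L11 (338 and 187), which act in glucose uptake, fuel choice and cell death, had promoter peaks with a core. So did MXI1. The best peaks of FBXO32, RBL2, CCNG2, GABARAPL1, MAP1LC3B, RICTOR and ATG14, all at promoters, held no exact core in either replicate. CDKN1A and TRIM63 had no peak. As these lists were drawn up with earlier results known, their counts are a description only.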

How the data were processed

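OVCAR5 chromatin was precipitated with an antibody to FOXK2 in 2 biological replicates. Per the methods, the authors mapped single-end 50-bp reads to hg38 with Bowtie2 (version 2.2.6) and called peaks with HOMER (version 4.10), and each replicate has its own list. The deposited peak score is scaled per library and was ranked only within its list. The deposited focus ratio is a fraction and was not used for any selection. Annotation class, nearest start and distance are those of the deposited lists. Peaks spanned 211 positions in replicate 1 and 257 in replicate 2. Library totals were not given in the sources used here, so that depth is known only through the score step.

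Scores were converted to percentiles within each list. Peaks overlapping by at least 1 bp formed pairs. Motif matches in either orientation were counted up to 100 bp from the centre with pysam (version 0.24.0), and gene spans and starts were taken from GENCODE release 44. Gene names were counted against a RefSeq reference on GRCh38.p14, in which all member names were found. Sequences were read from hg38. The search and overlap routines were first run on simulated peaks and recovered what had been planted. Intervals are Wilson 95% for shares and exact Poisson 95% for tags, and cover counting error only. Scores were given for the peaks of a fixed list of FOXK, FOXO, FOXP, FOXA, FOXN, FOXJ, FOXC1, FOXL2, FOXM1 and FOXQ1 genes and for the overlapping pairs of other members. They were also given for the unpaired peaks of FOXD1 and FOXE1. The rest were given by counts or names, among them the unpaired peaks of FOXP1. The members and lists were chosen with earlier results of these data known. The shared FOXP1 and FOXP2 element, the peaks per 100 kb and the searches for TGACGTCA and for inverted cores were added after the data had been seen. Lists cut by score, distance or chromosome, other windows, motifs and promoter definitions, and each replicate left out were tried as alternatives.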

Additional observations from a re-analysis of the deposited data

How the results depend on the processing

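Of 54 alternative values for the family counts and shares, 43 stayed within the counting interval of a share or 1.5 times a count, and 11 did not. The interval is wide at few peaks: the replicate 1 promoter share of 9.3% was 14.3% in the upper part of the list by score and 16.3% with GENCODE starts, and was still inside it. The number of genes with a peak in both replicates, 20, or 42.6% beside 28.6% of all genes, was 12 (25.5% beside 17.7%) in the upper part of each list, cut at its median score, and 10 (21.3% beside 16.9%) within 10000 bp of a start. With promoter peaks only it was 4 (8.51%, 3.36 to 19.9, beside 9.30%). By gene span it was 12 (25.5%, 15.3 to 39.5, beside 28.5%), so that under both it was no longer above the share of all genes. Under each of these alternatives the share of all genes lay inside the Wilson interval of the family. With a replicate left out, the value is the number of genes in the remaining list alone, 24 in replicate 2 and 20 in replicate 1. Such a value cannot fall below the number in both, so that it is no check of stability. Both values are among the 43 above. Those upper parts kept 21 and 44 of the 43 and 78 forkhead peaks. With replicate 2 reduced to its 12471 best peaks, 41 forkhead peaks remained there, and the overlapped share was 65.1% in replicate 1 and 68.3% in replicate 2, beside 60% of all peaks in each list. The degenerate core in place of the exact one gave 74.4% and 65.4%. Addition of FOXD4-like genes and removal of peaks outside the named chromosomes changed no count. No paired analysis was possible because both peak lists belong to a single condition and no test was made. The list of replicate 1 is the shorter one, so that absence from it may reflect depth, and this was not tested. Peaks carry the name of the nearest start, which is not shown to be their target.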
